A study of Arabidopsis thaliana with 23 samples.

Results

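The 10 genes described here are NAC transcription factors known from stress and leaf senescence: ANAC019 (AT1G52890), ANAC055 (AT3G15500), RD26 (AT4G27410), ATAF1 (AT1G01720), ATAF2 (AT5G08790), ANAC032 (AT1G77450), ORE1 (AT5G39610), NAP (AT1G69490), ANAC016 (AT1G34180) and ANAC047 (AT3G04070). They were picked out by gene identifier, by a rule that uses no measured value but was written with earlier results of these data known, and all 10 were found among the 27655 genes of the mRNA table. Both mRNA and small RNA were profiled in entire Arabidopsis thaliana seedlings of the wild type, named gl1 in the design text, and of sos2-2, a mutant of the salt tolerance kinase gene SOS2. All seedlings grew on MS medium with 3% sucrose and 0.6% phytagel for 10 days at 22 °C in constant light, after 2 days at 4 °C. The MS groups received no NaCl, and the NaCl groups were kept in liquid MS containing 100 mM NaCl for 12 hours, called salt here. Whether the MS groups also went into liquid is not stated, and NaCl and a change of medium therefore cannot be told apart. The mRNA libraries numbered 3 for wild type on MS, 3 for wild type in NaCl, 2 for sos2-2 on MS and 3 for sos2-2 in NaCl, and each group had 3 small RNA libraries.

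NAC proteins are a large plant family that bind DNA through the conserved NAC domain at their N-terminus. ANAC019, ANAC055 and RD26 are induced by drought, salt and abscisic acid (ABA), and were isolated as proteins that bind the promoter of the dehydration gene ERD1. ATAF1, ATAF2 and ANAC032 form the ATAF subgroup, whose members respond to wounding, pathogens and abiotic stress. ORE1 (also ANAC092) and NAP promote the yellowing and death of ageing leaves, ANAC016 promotes chlorophyll breakdown, and ANAC047 acts in the upward leaf movement of waterlogged plants. The miRNA miR164 cleaves the ORE1 mRNA and holds it low in young leaves.

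All libraries were listed at a total of 1000000 TPM (transcript abundance per length, scaled to that total), of which plastid transcripts took 65.4% to 79.3%, with the highest share in replicate 3 of wild type in NaCl. TPM keeps no read depth, which leaves it unknown for mRNA. The small RNA libraries held 16700000 to 19600000 reads. Replicate 1 of wild type in NaCl stood apart from replicates 2 and 3 in how its values followed the purine share of transcripts (Spearman correlation across 16369 genes −0.315, against 0.192 and 0.327), and without it the number of genes called for salt in wild type went from 1558 to 4284. On MS the correlation was −0.246, −0.391 and −0.087 in wild type and 0.197 and 0.239 in sos2-2. In the sos2-2 NaCl libraries it was 0.253, −0.179 and 0.039. With each library's trend with purine share and transcript length removed, 1834 genes were called between the genotypes on MS, against 462 as deposited. The count was also higher in settings that kept this trend. It was 1705 after centring each library on its median, 1432 with nuclear genes rescaled and 1903 with only the MS groups fitted. The part of the purine trend in the rise was not tested. SOS2 mRNA was at 1.08 ± 0.178 TPM on MS and 1.095 ± 0.145 in NaCl for wild type (SD, n = 3 each), and at 1.304 ± 0.0846 and 1.003 ± 0.258 for sos2-2 (SD, n = 2 and 3), and was not called in any comparison. Since what the allele changes is not stated, SOS2 mRNA gives no check on which genotype a library holds. The summed TPM of 20 nuclear photosynthesis genes, used as shoot markers, was 22140 to 24219 on MS and 8303 to 14588 in NaCl for wild type, and 14094 to 14634 and 12257 to 17275 for sos2-2. That of 10 root markers was 640 to 937, 694 to 884, 621 to 630 and 543 to 744 in these groups, taken in that order, and no marker of either list was listed at 0. In whole seedlings, fewer cells of a type and less RNA per cell cannot be told apart.

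The miR164 strands, read from the TAIR10.1 genome at the positions annotated by RefSeq, are shown because ORE1 is their target. Capitals mark the seed, bases 2 to 8.
miR164a and miR164b-5p: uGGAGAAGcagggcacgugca
miR164c-5p: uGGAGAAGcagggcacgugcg
miR164b-3p: cAUGUGCCcaucuucaccauc
miR164c-3p: cACGUGUUcuacuacuccaac
The 3 5p strands shared 1 seed, and the 3p strands had others. The ORE1 site lay in the coding part of exon 3 of 3 (TAIR10.1, chr5:15858797-15858817, minus strand). In the lines that follow, capitals mark bases complementary to miR164a, and G:U pairs are counted as mismatches and left in lower case. The sites of NAC1 and CUC1, other known targets, are shown beside the ORE1 site.
ORE1 site: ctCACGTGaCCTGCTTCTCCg
NAC1 site: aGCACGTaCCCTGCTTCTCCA
CUC1 site: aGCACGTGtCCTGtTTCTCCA
The ORE1 site had 4 mismatches to miR164a, at positions 1, 13, 20 and 21 counted from the miRNA 5′ end, 1 of them a G:U pair, and 3 to miR164c-5p. The NAC1 site had 2 mismatches to miR164a (positions 14 and 21), 0 of them G:U pairs. The CUC1 site had 3 (positions 8, 13 and 21), 2 of them G:U pairs. The closest stretch in each of the other 9 members had 8 to 10 mismatches to miR164a.

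The promoters shown are the 250 bases before the annotated gene start (TAIR10.1, 5′ to 3′ on the gene's strand). They are those of RD26, ANAC032, ANAC019 and ATAF1, the members whose NaCl libraries lay above the MS libraries in both genotypes. Those of ATAF2 and ANAC055, whose salt response was called different between the genotypes, are shown too. For ANAC055 this call came from a fit without the filter on low values and held in 3 of 17 alternatives. Capitals mark the core of the ABA response element (ACGTG), the core of the dehydration response element (CCGAC), a NAC core (CATGTG) and the W-box core (TTGAC), each searched on both strands.
RD26 promoter (chr4:13709171-13709420, minus strand): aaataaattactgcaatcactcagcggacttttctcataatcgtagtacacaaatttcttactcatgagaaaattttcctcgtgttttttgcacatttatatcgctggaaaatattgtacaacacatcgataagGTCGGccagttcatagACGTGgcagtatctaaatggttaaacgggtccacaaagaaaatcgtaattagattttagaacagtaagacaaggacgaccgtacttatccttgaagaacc
ANAC032 promoter (chr1:29099589-29099838, plus strand): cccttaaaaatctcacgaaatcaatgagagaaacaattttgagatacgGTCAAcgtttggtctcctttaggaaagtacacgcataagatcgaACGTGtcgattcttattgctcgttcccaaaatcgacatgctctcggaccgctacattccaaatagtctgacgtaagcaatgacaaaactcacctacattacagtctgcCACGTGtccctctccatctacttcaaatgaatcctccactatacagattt
ANAC019 promoter (chr1:19698483-19698732, minus strand): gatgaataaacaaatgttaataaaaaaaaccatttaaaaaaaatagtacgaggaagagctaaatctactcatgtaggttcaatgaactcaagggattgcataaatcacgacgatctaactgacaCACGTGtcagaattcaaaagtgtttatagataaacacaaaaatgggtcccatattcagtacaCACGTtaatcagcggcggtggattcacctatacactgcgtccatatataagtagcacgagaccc
ATAF1 promoter (chr1:267743-267992, plus strand): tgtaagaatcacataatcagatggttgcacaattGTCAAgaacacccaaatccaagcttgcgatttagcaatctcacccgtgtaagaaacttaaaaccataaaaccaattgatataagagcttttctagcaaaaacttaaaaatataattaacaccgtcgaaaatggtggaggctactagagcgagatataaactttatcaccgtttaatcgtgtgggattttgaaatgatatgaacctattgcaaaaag
ATAF2 promoter (chr5:2860559-2860808, minus strand): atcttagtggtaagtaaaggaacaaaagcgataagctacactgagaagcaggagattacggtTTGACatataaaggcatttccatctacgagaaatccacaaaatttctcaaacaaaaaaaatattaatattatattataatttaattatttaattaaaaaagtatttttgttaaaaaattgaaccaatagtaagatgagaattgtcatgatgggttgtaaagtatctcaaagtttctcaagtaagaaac
ANAC055 promoter (chr3:5234207-5234456, plus strand): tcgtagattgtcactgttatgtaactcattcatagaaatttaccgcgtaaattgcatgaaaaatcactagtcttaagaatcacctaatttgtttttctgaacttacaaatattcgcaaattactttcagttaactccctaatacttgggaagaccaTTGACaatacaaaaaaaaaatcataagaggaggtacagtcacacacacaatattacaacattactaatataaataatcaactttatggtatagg
ACGTG stood in 5 of the 10 member promoters (ANAC019, RD26, ANAC032, NAP and ANAC047), against 22.9% of 27443 promoters of protein-coding genes. Among the promoters shown, those of ATAF1, ATAF2 and ANAC055 held no match to it. How often the NaCl libraries of other genes lie above the MS libraries in both genotypes was not counted. The choice of promoters shown therefore says nothing on the motif and salt, and no link between them was tested. For salt in wild type ANAC032 had a limma adjusted p of 0.0349. RD26, ATAF1 and, in a fit without a filter on low values, ANAC019 did not pass (0.148, 0.175 and 0.0578). In RD26 it began at −100 from the gene start, next to CCGAC at −116. In ANAC032 it stood at −158 and, as the palindrome CACGTG that counts on both strands, at −50 and −49. ANAC019 had it at −126, −125 and −64, ANAC047 at −240 and NAP at −242 and −241. CCGAC stood in RD26 alone among the members (12% of all promoters), CATGTG in 0 (11.1%) and TTGAC in 6 (44.9%), ATAF2 and ANAC055 among them. These matches describe letters, not bound sites.

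The member genes lie on all chromosomes but 2 (TAIR10.1). ANAC019 is on chromosome 1 at 19696923 to 19698482 (minus strand), ATAF1 at 267993 to 269819 (plus), ANAC032 at 29099839 to 29101759 (plus), NAP at 26122080 to 26123514 (plus) and ANAC016 at 12448543 to 12451287 (plus). On chromosome 3 are ANAC055 at 5234457 to 5236196 (plus) and ANAC047 at 1061300 to 1063234 (minus), on chromosome 4 RD26 at 13707192 to 13709170 (minus), and on chromosome 5 ATAF2 at 2858849 to 2860558 (minus) and ORE1 at 15858398 to 15859911 (minus). ATAF1 overlaps AT1G01725 (28 bases) and the long noncoding RNA AT1G04043 (344 bases) on the opposite strand, and ATAF2 overlaps AT5G08780 (158 bases). Whether counting used strand is unknown here, and reads of these overlaps cannot be told apart. ANAC016 shared 15 of its 2327 31-base words with ANAC017, its neighbour 118 bases away, ANAC055 and ATAF2 shared 2 with each other, and the other 7 shared none with another gene.

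Among the ANAC019, ANAC055 and RD26 group, which share an ABA-inducible character, RD26 was the most abundant per length. RD26 mRNA was at 2.31, 2.47 and 2.35 TPM in the wild-type MS libraries and 2.70, 4.55 and 3.62 in the NaCl ones, and at 2.19 and 2.21 in the sos2-2 MS libraries and 7.62, 4.85 and 6.91 in the NaCl ones. Every NaCl library lay above every MS library, and every sos2-2 NaCl library above every wild-type one. ANAC055 was at 0.335, 0.374 and 0.591 TPM in the wild-type MS libraries and 0.354, 0.177 and 0.344 in the NaCl ones, and at 0.372 and 0.415 in the sos2-2 MS libraries and 1.08, 1.65 and 2.04 in the NaCl ones. Its first 3 groups overlapped, and the sos2-2 libraries in NaCl stood above all others. ANAC019 was at 0.195, 0.175 and 0.184 TPM in the wild-type MS libraries and 0.661, 0.454 and 0.467 in the NaCl ones, and at 0.29 and 0.121 in the sos2-2 MS libraries and 0.941, 1.04 and 0.689 in the NaCl ones. The NaCl groups lay above the MS groups in both genotypes, and the MS groups overlapped. In NaCl the lowest sos2-2 library (0.689) lay just above the highest wild-type one (0.661). Both ANAC019 and ANAC055 had a mean under 1 TPM over the 11 libraries.

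ATAF1 and ATAF2, known as stress- and wound-responsive regulators, were the most abundant members by mean TPM over all libraries. ATAF1 was at 7.78, 7.84 and 7.94 TPM in the wild-type MS libraries and 13.9, 11.3 and 8.06 in the NaCl ones, and at 5.59 and 6.08 in the sos2-2 MS libraries and 17.0, 16.8 and 21.2 in the NaCl ones. Its order was the same as that of RD26, with sos2-2 on MS lowest and sos2-2 in NaCl highest, and replicate 3 of wild type in NaCl lay just above the wild-type MS libraries. ATAF2 was at 7.69, 9.14 and 8.56 TPM in the wild-type MS libraries and 4.51, 5.72 and 3.70 in the NaCl ones, and at 8.27 and 7.26 in the sos2-2 MS libraries and 27.1, 17.3 and 26.5 in the NaCl ones. Its NaCl libraries lay below the MS libraries in wild type and above them in sos2-2, and neither pair of groups overlapped. ANAC032, linked to senescence under stress, was at 1.17, 1.43 and 0.961 TPM in the wild-type MS libraries and 3.18, 2.1 and 1.95 in the NaCl ones, and at 0.793 and 0.573 in the sos2-2 MS libraries and 2.38, 3.11 and 3.24 in the NaCl ones. The NaCl groups overlapped each other and lay above both MS groups.

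Of the senescence regulators, ORE1 was at 5.98, 4.16 and 4.09 TPM in the wild-type MS libraries and 5.15, 3.11 and 2.51 in the NaCl ones, and at 8.64 and 4.47 in the sos2-2 MS libraries and 8.49, 12.5 and 12.3 in the NaCl ones. The first 3 groups overlapped, and the sos2-2 groups overlapped at 8.64 and 8.49 TPM. NAP was at 3.31, 5.10 and 4.75 TPM in the wild-type MS libraries and 2.71, 3.57 and 1.22 in the NaCl ones, and at 7.51 and 7.11 in the sos2-2 MS libraries and 5.97, 3.86 and 4.77 in the NaCl ones. NAP was the 1 member whose highest group was sos2-2 on MS. ANAC047 was at 3.06, 3.02 and 3.97 TPM in the wild-type MS libraries and 4.34, 4.99 and 3.38 in the NaCl ones, and at 5.85 and 3.66 in the sos2-2 MS libraries and 9.76, 8.14 and 11.9 in the NaCl ones, where it lay above all other libraries. ANAC016 stayed between 0.193 and 0.842 TPM in all 11 libraries, and its sos2-2 NaCl libraries (0.842, 0.261 and 0.647) ran from inside the range of the other groups to above it. Together the 10 members summed to 25.5 to 37.7 TPM in wild type, 32.2 to 39.9 in sos2-2 on MS and 69.4 to 90.3 in sos2-2 in NaCl.

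**Figure D1:**
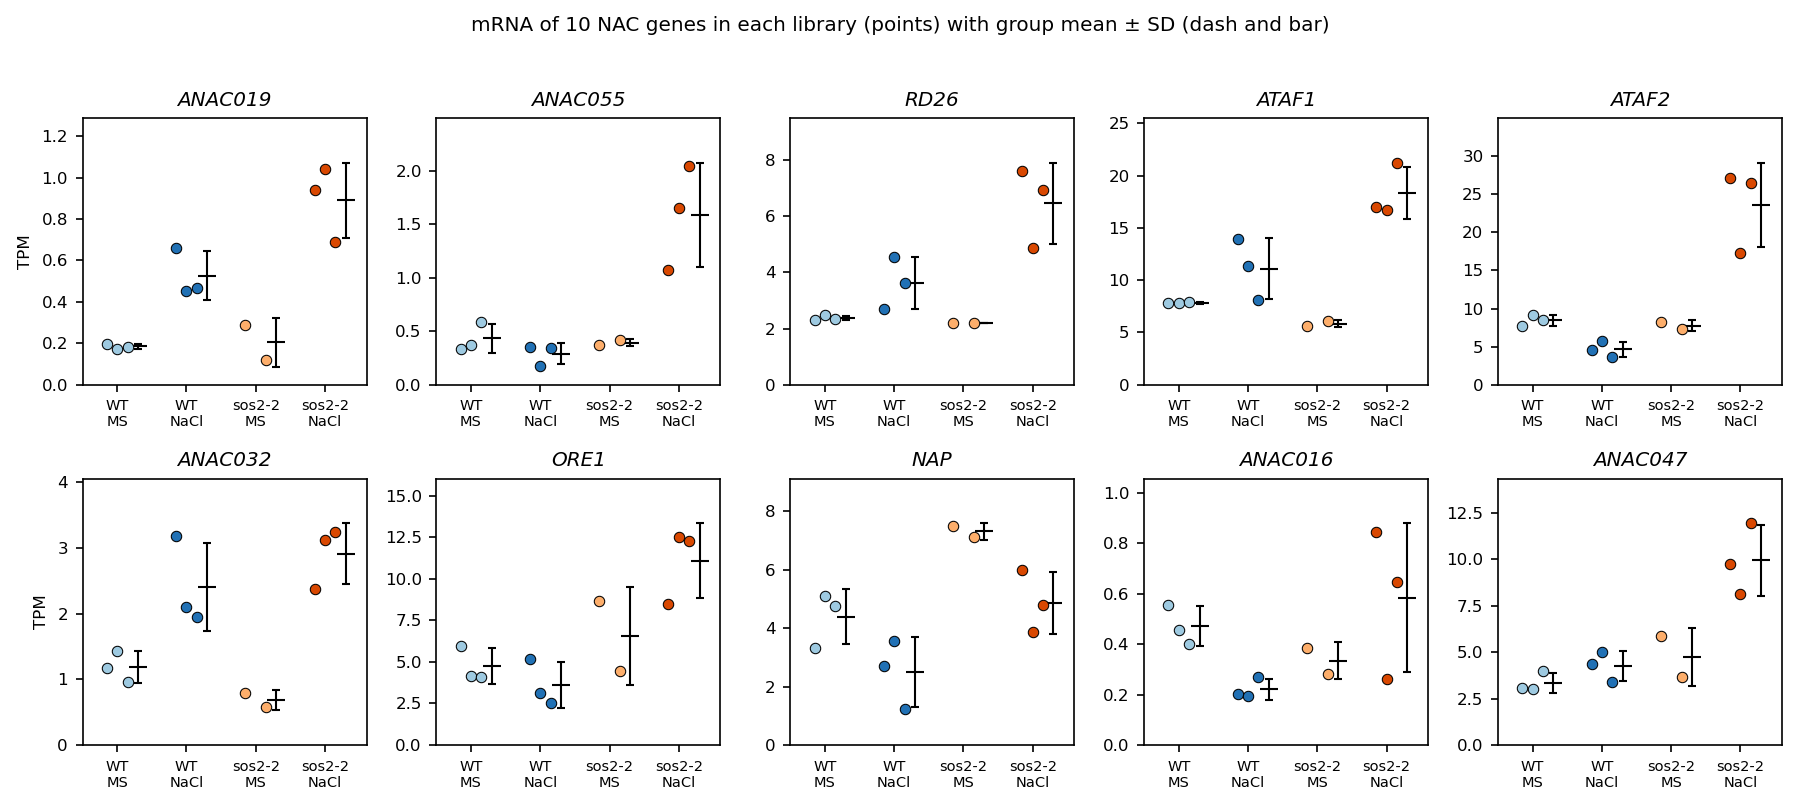
TPM (y axis, linear from 0) of each of the 10 genes in each mRNA library, 1 point per library, by group, with the group mean and SD (dash and bar, n = 3, 3, 2 and 3). The sos2-2 libraries in NaCl are the highest for RD26, ATAF1, ATAF2, ANAC019, ANAC055 and ANAC047, while NAP is highest in sos2-2 on MS at 7.11 to 7.51 TPM.

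In the comparisons that follow, limma was run on log2(TPM + 1) over 16564 genes with a mean of at least 1 TPM, and a gene was called at an adjusted p under 0.05 (Benjamini-Hochberg over all tested genes). The pseudocount of 1 understates the change of low genes. Of the 10 members 7 passed this filter, and ANAC019, ANAC055 and ANAC016, which did not, were taken from the same fit over 24311 genes without the filter. Log2 changes are relative to the median gene, whose own change was −0.21 for salt in wild type, 0.16 for salt in sos2-2, −0.05 for sos2-2 against wild type on MS, 0.32 in NaCl and 0.39 for the interaction, while the calls come from the values as deposited. Counts after each library was centred on its median are given beside them.

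In wild type, single members moved in opposite directions with salt. ANAC032 rose from 1.19 ± 0.237 to 2.41 ± 0.67 TPM (SD, n = 3 each), a log2 change of 0.83 (SE 0.18, limma adjusted p = 0.0349), and ATAF2 fell from 8.46 ± 0.731 to 4.64 ± 1.02 TPM (−0.55, SE 0.21, 0.0288). These were the 2 called members of 7 tested, against 9.41% of all tested genes. After centring 2 were again called, ANAC032 and ATAF1 (0.63, limma adjusted p = 0.0162), against 10.2% of all genes, and ATAF2 was not. RD26 (0.64, SE 0.19), ATAF1 (0.63, SE 0.20) and ANAC047 (0.47, SE 0.20) had positive changes that did not pass as deposited (limma adjusted p = 0.148, 0.175 and 0.411), and all 3 passed when nuclear genes were brought to 1 shared total (0.0426, 0.00597 and 0.042). NAP (−0.46, SE 0.24) and ORE1 (−0.14, SE 0.25) did not pass (0.0784 and 0.371). Of the 3 low members, with 3.55% of all genes called without the filter, ANAC019 came close at 0.49 (SE 0.09, 0.0578) and was called after centring (0.0279), and ANAC055 (−0.03) and ANAC016 (−0.14) were not (0.56 and 0.223). The median change of the 7 tested members was 0.47. ATAF2 lost its call without any 1 of the 3 MS libraries or replicate 3 of the NaCl libraries (up to 0.137), and ANAC032 lost it in 5 of its left-out fits (up to 0.134). In the same comparison 16 of 20 shoot markers were called lower, 10 after centring, 4 with nuclear genes rescaled or without replicate 3 in NaCl, 7 without replicate 2 in NaCl and 6 to 7 without any 1 MS library of the wild type, and the part of tissue makeup in these changes was not tested.

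In sos2-2, the ABA-inducible genes, the ATAF subgroup and ANAC047 rose with salt, and ORE1 and NAP were not called. ATAF1 rose from 5.84 ± 0.345 to 18.4 ± 2.51 TPM (SD, n = 2 and 3), a log2 change of 1.33 (SE 0.22, limma adjusted p = 0.000244), ATAF2 from 7.77 ± 0.712 to 23.6 ± 5.52 TPM (1.3, SE 0.23, 0.000419) and ANAC032 from 0.683 ± 0.155 to 2.91 ± 0.465 TPM (1.05, SE 0.20, 0.000655). RD26 rose from 2.199 ± 0.0112 to 6.46 ± 1.44 TPM (1.04, SE 0.21, 0.00123), and ANAC047 from 4.75 ± 1.55 to 9.94 ± 1.91 TPM (0.78, SE 0.23, 0.0157). In all 5 of the 7 tested members rose and 0 fell, against 5.66% of all genes called higher and 6.59% called in either direction, and the same number rose after centring (8.82% of all genes called). ORE1 had a change of 0.56 (SE 0.28, 0.156) and NAP of −0.68 (SE 0.26, 0.311). Without the filter, where 4.44% of genes were called, ANAC055 rose from 0.394 ± 0.0302 to 1.59 ± 0.486 TPM (0.77, SE 0.15, 0.00744) and ANAC019 from 0.205 ± 0.119 to 0.89 ± 0.182 TPM (0.54, SE 0.10, 0.00492), which was 4.34 times the MS mean. ANAC016 was not called (0.13, SE 0.13, 0.42). The median change of the 7 tested members was 1.04. The calls of ATAF1, ATAF2, ANAC032 and RD26 held in every alternative run for them, with adjusted p-values up to 0.022. That of ANAC047 was lost without replicate 2 of sos2-2 on MS (0.338) or replicate 3 in NaCl, and that of ANAC019 after centring, among others (up to 0.106). ANAC055 lost its call without either MS library of sos2-2 (0.0827 and 0.0824) and in a fit of the sos2-2 groups alone (0.134). Of the shoot markers 0 of 20 were called in this comparison, and 3 lower after centring.

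**Figure D2:**
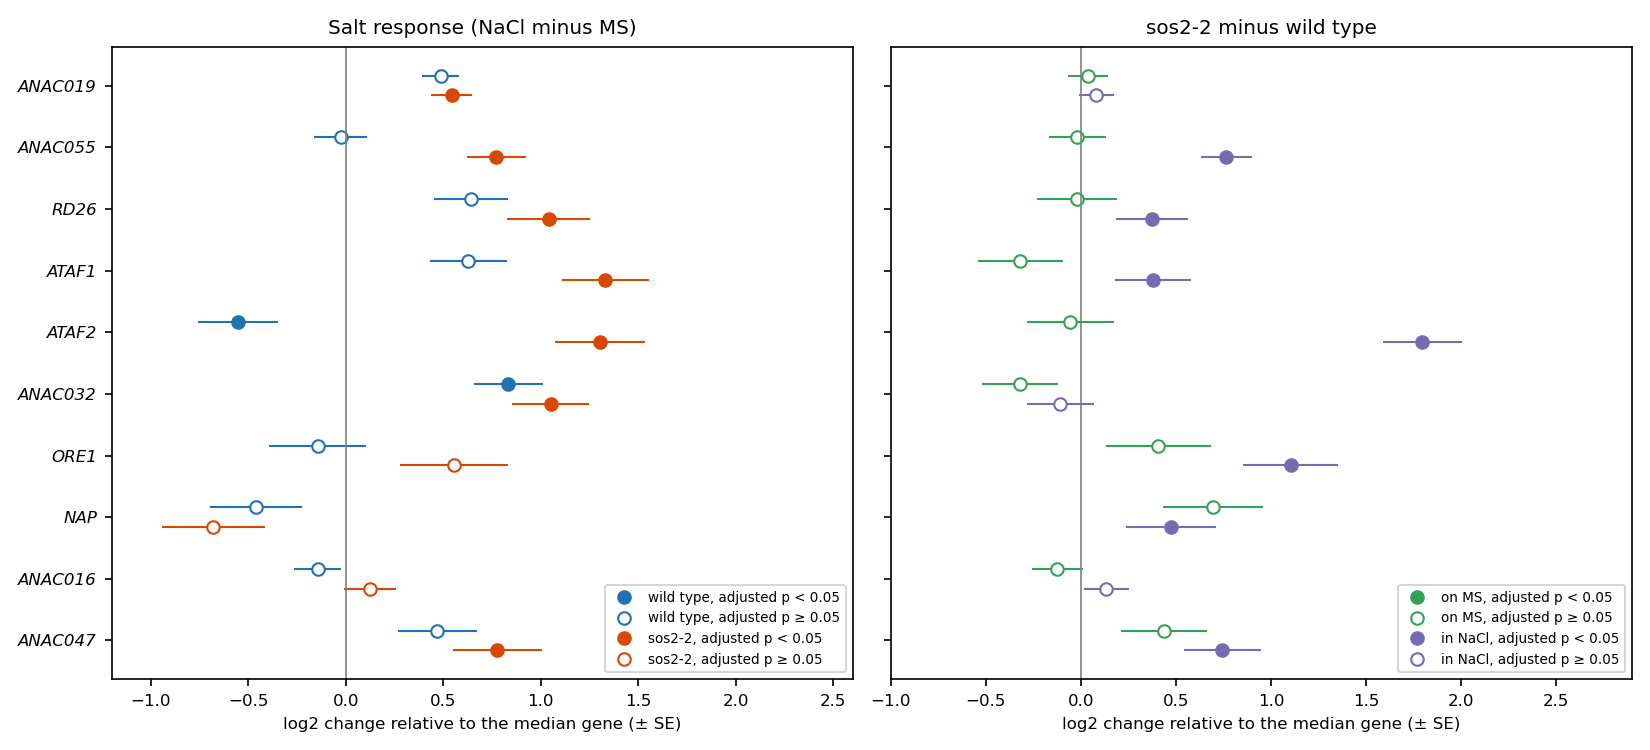
Log2 change relative to the median gene (x axis, points) with its SE (bars) for each member, left for salt in each genotype and right for sos2-2 against wild type in each medium, with filled points at a limma adjusted p under 0.05. ATAF2 lies on opposite sides of 0 for salt in the 2 genotypes, at −0.55 and 1.3, and is the member farthest to the right in NaCl at 1.80.

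Between the genotypes on MS no member was called. Of the 7 tested members 0 passed, against 2.79% of all genes, and 0 of the 3 low members passed without the filter, where 0.0494% of all genes did. After centring 10.3% of all genes were called and again 0 members. NAP had the largest difference, at 4.39 ± 0.95 TPM in wild type and 7.31 ± 0.282 in sos2-2 (SD, n = 3 and 2). Its log2 change of 0.69 (SE 0.26) had a limma adjusted p = 0.184, and NAP was the 1 member with an unadjusted limma p under the threshold (0.0262). In a fit of these 2 groups alone NAP was called (limma adjusted p = 0.0444). ANAC047 (0.44, SE 0.23) and ORE1 (0.41, SE 0.28) were above 0 and ATAF1 (−0.32, SE 0.22) and ANAC032 (−0.32, SE 0.20) below it, none past the threshold. The median change of the 7 was −0.02. Of the 20 shoot markers 2 were called lower in sos2-2 on MS, 0 without either MS library of sos2-2 and 5 when NaCl replicate 1 of wild type was left out, and their part in these values was not tested.

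In NaCl sos2-2 seedlings held more mRNA of most tested members than the wild type did. ATAF2 was at 23.6 ± 5.52 TPM in sos2-2 and 4.64 ± 1.02 in wild type (SD, n = 3 each), a ratio of means of 5.09 and a log2 change of 1.80 (SE 0.21, limma adjusted p = 2.18e-06). ORE1 was at 11.1 ± 2.26 against 3.59 ± 1.38 TPM (1.1, SE 0.25, 0.00104), and ANAC047 at 9.94 ± 1.91 against 4.24 ± 0.814 TPM (0.74, SE 0.20, 0.00215). NAP (0.47, SE 0.24, 0.0275), ATAF1 (0.38, SE 0.20, 0.0225) and RD26 (0.37, SE 0.19, 0.0191) were called higher too. This made 6 of 7 tested members higher and 0 lower, against 18.9% of all genes called higher and 19.3% in either direction. After centring the 3 called were ATAF2 (limma adjusted p = 0.000154), ORE1 (0.0105) and ANAC047 (0.0113), against 10.6% of all genes, and the same 3 were called when nuclear genes were rescaled. RD26, ATAF1 and NAP were not called after centring (0.304, 0.127 and 0.238). ANAC032 was not called (−0.11, SE 0.18, 0.393), with a level of 2.91 ± 0.465 TPM in sos2-2 and 2.41 ± 0.67 in wild type. Without the filter, where 11.9% of genes were called, ANAC055 was higher in sos2-2 at 1.59 ± 0.486 against 0.292 ± 0.0993 TPM (0.77, SE 0.14, 0.00169), a ratio of 5.46, and held its call in every alternative (up to 0.0431). ANAC019 (0.08, SE 0.09, 0.0551) and ANAC016 (0.13, SE 0.12, 0.0729) were not called. The median change of the 7 was 0.47. Without replicate 3 of wild type in NaCl, or without replicate 3 of sos2-2 in NaCl, 3 of the 7 members were called. ATAF2, ORE1 and ANAC047 were called in all 20 alternatives, with adjusted p-values up to 0.000218, 0.0127 and 0.0174. Of the shoot markers 4 of 20 were called higher as deposited, 8 when NaCl replicate 1 of wild type was left out, and 1 lower after centring.

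ATAF2 was the member whose salt response differed most between the genotypes, falling in wild type and rising in sos2-2. The interaction, the response of sos2-2 minus that of the wild type, was 1.84 (SE 0.31, limma adjusted p = 0.000606), and ATAF2 kept its call in all 19 alternatives (up to 0.0142). It was the 1 called of 7 tested members, higher, against 1.97% of all genes higher and 2.04% in either direction, and the 1 called after centring, against 0.749%. ANAC055 was called without the filter, where 0.93% of genes were (0.75, SE 0.20, 0.0426), but in 3 of its 17 alternatives only, and not after centring (0.235). ATAF1 (0.68, SE 0.30), ORE1 (0.68, SE 0.37), RD26 (0.38, SE 0.28), ANAC047 (0.29, SE 0.30) and ANAC032 (0.20, SE 0.27) had positive differences that were not called (0.0722, 0.125, 0.139, 0.186 and 0.19), and NAP a negative one (−0.24, SE 0.35, 0.779). ANAC019 (0.01, SE 0.14, 0.278) and ANAC016 (0.23, SE 0.18, 0.206) were not called. Without replicate 1 of wild type in NaCl, 4 of the 7 were called, ATAF2 together with ATAF1, ORE1 and ANAC032 (limma adjusted p = 0.00648, 0.0133 and 0.0479 for these 3), while the number of all genes called went from 338 to 3559.

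At the level of transcript models, RD26 and ANAC047 each had 2 that were detected. The RD26 model AT4G27410.2 was at 0.663, 1.53 and 1.39 TPM in wild type on MS and 2.15, 2.62 and 3.11 in NaCl, and AT4G27410.1 at 1.64, 0.933 and 0.956 TPM and then 0.546, 1.92 and 0.513. Of these, AT4G27410.2 lay higher in all NaCl libraries of the wild type, while in sos2-2 both did, at 1.07 and 1.91 TPM against 4.65, 3.21 and 4.88 for AT4G27410.2 and at 1.13 and 0.297 TPM against 2.97, 1.64 and 2.04 for AT4G27410.1. The third model, AT4G27410.3, was listed at 0 in all 11 libraries. The ANAC047 model AT3G04070.2 was listed at 0, 0 and 0.268 TPM in wild type on MS and at 2.02, 2.09 and 2.11 in NaCl, and in sos2-2 at 0.268 and 0.806 TPM on MS and 3.59, 0.658 and 4.58 in NaCl. Meanwhile AT3G04070.1 went from 3.06, 3.02 and 3.70 TPM to 2.32, 2.91 and 1.27 in wild type, and from 5.58 and 2.85 to 6.17, 7.48 and 7.36 in sos2-2. The wild-type groups of both ANAC047 models did not overlap, and they lay in opposite order. Transcript models were not tested, and reads that fit both models of a gene are divided by estimation.

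**Figure D3:**
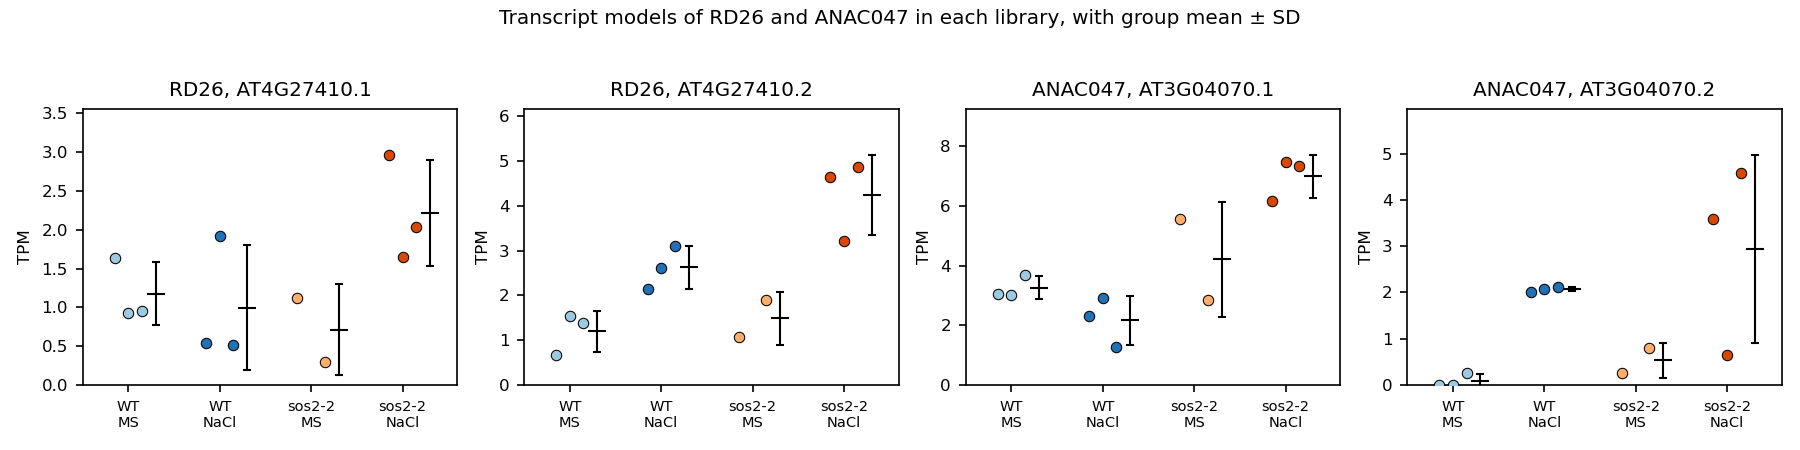
TPM (y axis, linear from 0) of the detected transcript models of RD26 and ANAC047 in each mRNA library, 1 point per library, with the group mean and SD (n = 3, 3, 2 and 3). AT3G04070.2 is at 0 to 0.268 TPM in wild type on MS and 2.02 to 2.11 in NaCl.

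The small RNA libraries give the level of miR164, in RPM (reads scaled to the total of each library). The strands that can pair with ORE1 were not called in any comparison. miR164a was at 36.0, 60.0 and 52 RPM in the wild-type MS libraries and 47.1, 54.0 and 47.4 in the NaCl ones, and at 49.6, 44.0 and 43.5 in the sos2-2 MS libraries and 34.3, 59.2 and 44.0 in the NaCl ones. miR164b-5p, of identical sequence, followed it at 35.3 to 67.2 RPM over all libraries, and since both can count the same reads they are not separate measurements. miR164c-5p was at 17.2 to 33.2 RPM. For the comparison in NaCl, where ORE1 was higher in sos2-2, the changes of miR164a, miR164b-5p and miR164c-5p relative to the median miRNA were 0.00 (SE 0.18), −0.06 (SE 0.19) and 0.08 (SE 0.19), with limma adjusted p-values of 0.636, 0.562 and 0.882.

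The strand opposite the guide of miR164c behaved otherwise. miR164c-3p was at 6.17, 11.9 and 9.44 RPM in the wild-type MS libraries and 7.30, 8.02 and 8.65 in the NaCl ones, and at 16.6, 17.9 and 15.4 in the sos2-2 MS libraries and 10.3, 12.0 and 8.79 in the NaCl ones. The sos2-2 libraries on MS stood above all others. It was higher in sos2-2 than in wild type on MS (log2 change 0.82, SE 0.17, limma adjusted p = 0.00819), the 1 called of 5 miR164 strands, against 4.44% of 293 miRNAs. It fell with salt in sos2-2 (−0.60, SE 0.17, 0.0381), again 1 of 5, against 3.75%. In wild type 0 of 5 strands were called for salt, against 4.44%, and between genotypes in NaCl 0 of 5, against 3.41%. miR164c-3p was called in that last comparison after centring (0.46, limma adjusted p = 0.0295). The interaction called 0 of 5 strands and 0% of all miRNAs. None of the 5 strands had an unadjusted p under 0.05 in these 3 comparisons. The call on MS was lost without 1 wild-type MS library (0.0504), and that for salt in sos2-2 in 5 left-out fits and without the filter (up to 0.188).

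**Figure D4:**
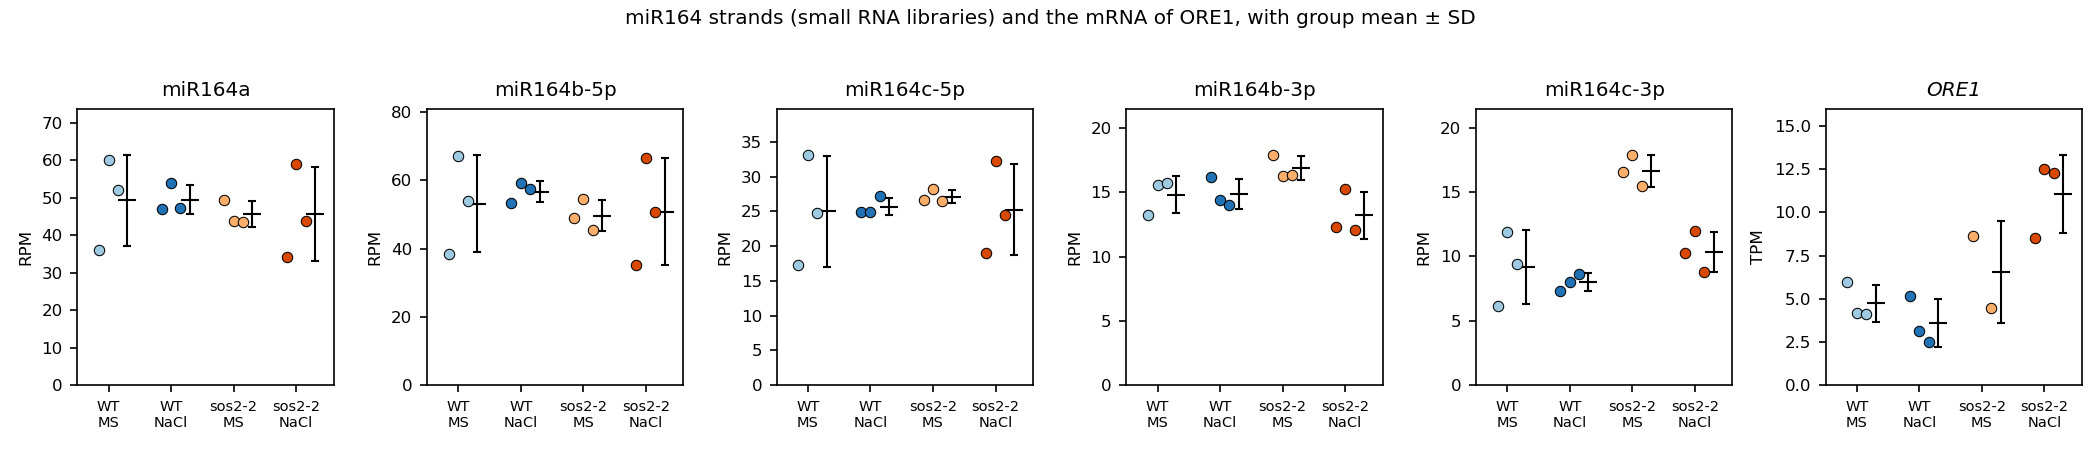
RPM (y axis, linear from 0) of the 5 miR164 strands in each small RNA library and, at the right, TPM of ORE1 in each mRNA library, with the group mean and SD. miR164c-3p is highest in sos2-2 on MS at 15.4 to 17.9 RPM, and the other strands overlap between groups in NaCl.

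Some genes reported elsewhere as targets of these NACs rose with salt. Of 24 listed, 18 were tested, and 5 rose in wild type and 4 in sos2-2, with 0 lower in either (5 and 3 higher after centring). Over all 16564 tested genes 281 and 937 were called higher. The count fell to 3 in wild type without MS replicate 1 or 2 or NaCl replicate 2 or 3, and to 2 in sos2-2 without MS replicate 1. SWEET15, a sugar exporter of senescing leaves, went from 1.01 ± 0.0781 to 5.39 ± 1.77 TPM in wild type (SD, n = 3 each), a log2 change of 1.84 (SE 0.20, limma adjusted p = 9.08e-05), and from 0.626 ± 0.265 to 4.43 ± 0.937 TPM in sos2-2 (1.57, SE 0.22, 6.07e-05). The lipoxygenase gene LOX2 (1.44 in wild type and 1.55 in sos2-2) and the storage protein gene VSP1 (1.40 and 0.98), both of the jasmonate response, rose in both, as did CV, which acts in chloroplast breakdown (1.0 and 0.75). ABF2, an ABA-responsive factor, rose in wild type (1.07). Between the genotypes 0 of 18 were called on MS, against 2.79% of all genes. In NaCl the nuclease gene BFN1 was higher in sos2-2 (0.37, SE 0.18, 0.0143) and VSP1 lower (−1.23, SE 0.24, 0.0145), which became 0 higher and 2 lower after centring. Both wild-type means of BFN1 were under the filter of 1 TPM (0.861 without and 0.812 with salt), and the sos2-2 means were 1.17 and 1.89. BFN1 thus passed the filter only through sos2-2, the side called higher. The number called in NaCl was 0 with a filter at a mean of 5, 7 without replicate 1 of wild type in NaCl, 4 without replicate 2 of sos2-2 in NaCl, and 1 without replicate 2 or 3 of wild type or 1 or 3 of sos2-2 in NaCl. The interaction called 0 of 18, against 2.04% of all genes. The median of the list was 0.21 for salt in wild type, 0.26 for salt in sos2-2 and 0.06 in NaCl. BSMT1 was listed at 0 in all libraries.

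Senescence markers did not move as 1 group. Of 11 listed, 8 were tested. Over all tested genes, 9.41% were called for salt in wild type, 6.59% for salt in sos2-2, 2.79% on MS and 2.04% in the interaction. Between the genotypes in NaCl 18.9% were called higher, with 3138 genes higher and 67 lower. In wild type the genes that fell with salt were SEN1 (−1.72, SE 0.20, limma adjusted p = 1.76e-05), DIN10 (−1.29, SE 0.19, 0.000136) and SAG21 (−0.66, SE 0.24, 0.0329). DIN2, a glucosidase gene, rose (1.12, SE 0.26, 0.0382) but was not called after centring. In sos2-2 SEN1 (−1.36) and DIN10 (−1.09) fell, and WRKY6, a regulator of senescence and defence, rose by 1.07 (SE 0.23, 0.00192), with 6.09 ± 1.6 TPM on MS and 15.6 ± 2.38 in NaCl (SD, n = 2 and 3). In NaCl 5 of the 8 were higher in sos2-2 and 0 lower, 3 after centring, among them SAG14 (0.99, SE 0.28), WRKY6 (0.97, SE 0.20), SAG21 (0.69, SE 0.24) and SEN1 (0.42, SE 0.20). WRKY6 was called in the interaction too (0.99, SE 0.31, 0.0214), the 1 of 8. In the interaction 0 of the 8 were called with no filter, with nuclear genes rescaled, or without MS replicate 1 or 3 or NaCl replicate 3 of wild type, or MS replicate 2 or NaCl replicate 3 of sos2-2. The 5 called in NaCl became 2 without replicate 3 of either genotype in NaCl, and the 4 called in wild type 2 without MS replicate 1 or 3 or NaCl replicate 2 or 3. In sos2-2 1 was called for salt without MS replicate 2. On MS 0 of 8 were called. SAG12, the classic marker of late leaf senescence, was listed at 0 in all 11 libraries.

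Of 15 known regulators upstream of these NACs, 11 were tested, and 3 were called for salt in wild type (9.41% of all genes) and 3 between the genotypes in NaCl (19.3%). In wild type the ABA-responsive factors ABF2, listed above as well, and ABF3 (0.91, SE 0.20, limma adjusted p = 0.0335) rose with salt and PIF5, a light-signalling factor, was called lower (−0.53, SE 0.23, 0.0488) but not after centring. The wild-type count was 0 with no filter or without MS replicate 1 or 2 or NaCl replicate 2 or 3 of wild type, and 1 without MS replicate 3 of wild type or without MS replicate 1 or 2 or NaCl replicate 3 of sos2-2. In sos2-2 0 of 11 were called for salt (6.59% of all genes), and on MS 0 of 11 (2.79% of all genes, and 3 of the 11 higher after centring). In NaCl 3 were higher in sos2-2, and 1 after centring. The 3 were NLA, a ubiquitin ligase gene (0.55, SE 0.19), EIL1, of ethylene signalling (0.48, SE 0.19), and MYC4, of jasmonate signalling (0.33, SE 0.18). The interaction called 0 of 11, against 2.04% of all genes. MYC2 was listed at 0 in 10 libraries and at 3.85e-05 TPM in replicate 2 of sos2-2 in NaCl.

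Some other NAC genes rose with salt in sos2-2 too. Of 17 other stress NACs 13 were tested, and 5 rose with salt in sos2-2 with 0 lower, against 5.66% of all genes called higher. The largest rises were those of ANAC087 (from 3.13 ± 0.902 to 15.04 ± 3.47 TPM, SD, n = 2 and 3, a log2 change of 1.79, SE 0.23, limma adjusted p = 2.47e-05), ANAC013 (1.65), ANAC044 (1.25) and ANAC053 (1.21). ANAC013, which acts in mitochondrial retrograde signalling, rose in wild type as well (1.16, SE 0.24), while JUB1, a negative regulator of senescence, fell there from 4.53 ± 2.53 to 0.699 ± 0.361 TPM (−1.40, SE 0.32, 0.00535). Of these calls in wild type, 1 (lower) was left without MS replicate 2 or 3 or NaCl replicate 2, and 0 without NaCl replicate 3. In NaCl 8 of the 13 were higher in sos2-2 and 0 lower, against 18.9% of all genes called higher. The 8 became 5 after centring, and 5 without replicate 3 of either genotype in NaCl. ANAC087 (1.70), ANAC013 (1.47), ANAC044 (1.18) and ANAC053 (1.03) had the largest differences. ANAC087, ANAC053 and ANAC044 were called in the interaction (1.72, 1.06 and 1.05), against 1.97% of all genes called higher. Without replicate 1 of wild type in NaCl 6 were called there. Only the salt-treated sos2-2 group of ANAC044 had a mean above the filter of 1 TPM (3.03), and its other group means were 0.433 to 0.519. ANAC044 was thus tested only because of the group where it was then called higher. Its calls are part of those counted for the 13. Over the 90 other genes that RefSeq names as NAC genes, 38 were tested. Only the members were removed from this set, not the stress NACs above. Of the 38, 11 rose with salt in sos2-2 and 14 were higher in sos2-2 in NaCl, both with 0 lower. Of all genes 5.66% and 18.9% were called higher in these comparisons. After centring 11 and 9 were higher, then 0 and 2 lower. In the interaction 5 were called higher, against 1.97% of all genes (3 after centring or without MS replicate 2 of sos2-2, and 12 without replicate 1 of wild type in NaCl). The 14 became 9 without replicate 3 of either genotype in NaCl. On MS 0 of the 13 and 0 of the 38 were called, against 2.79% of all genes. After centring 1 was higher and 1 lower of the 13, and 2 higher and 4 lower of the 38. Of the 5 other miR164 targets, 3 were tested, and ANAC080 rose with salt in sos2-2 (0.79, SE 0.23, 0.0156), the 1 called in any comparison as deposited. That call was lost with no filter, with a filter at a mean of 5, and without either MS library or NaCl replicate 3 of sos2-2.

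**Figure D5:**
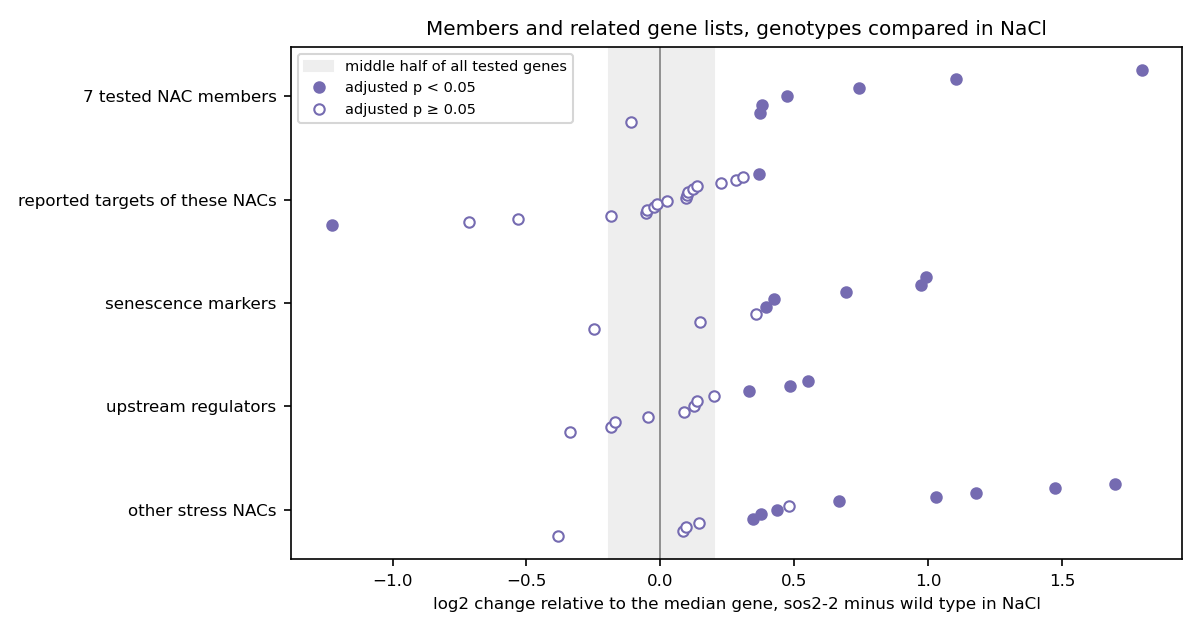
Log2 change relative to the median gene (x axis) of sos2-2 against wild type in NaCl for the 7 tested members and 4 gene lists, 1 point per gene, filled at a limma adjusted p under 0.05, with the middle 50% of all tested genes shaded (−0.19 to 0.20). ATAF2 at 1.80 and ANAC087 at 1.70 lie farthest to the right, and VSP1 at −1.23 farthest to the left.

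Across the 11 libraries the genes most like each member were found among 8483 genes with a mean of at least 5 TPM, by Pearson's r on median-centred log2(TPM + 1), as a description over libraries that share their groups. ATAF1 was closest to KIN2, a cold and ABA-induced gene (r = 0.984), and to the nitrate transporter gene NRT2:1 (0.968) and AT5G65470 (0.968). ATAF2 was closest to PUB23, a ubiquitin ligase gene of the drought and immune responses (0.986), AT3G45730 (0.977) and AT1G30700 (0.974). ORE1 was closest to DHDPS2, of lysine synthesis (0.974), AT4G20690 (0.956) and AT1G24881 (0.95). RD26 followed MYBR1 (0.96), ANAC019 the dehydrin gene RAB18 (0.94), ANAC055 GATA16 (0.94), ANAC032 AT1G68570 (0.979), ANAC047 AT3G15590 (0.951) and NAP LPA2 (0.903). For ANAC016, the highest r was 0.695, with AT5G13340. Among the members themselves r was highest between ATAF1 and ANAC032 (0.891) and lowest between ANAC032 and NAP (−0.705).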

How the data were processed

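The authors deposited TPM per transcript for mRNA and RPM per mature miRNA for small RNA. The submitters' processing notes name kallisto 0.46.2, sleuth 0.30.0, cutadapt, featureCounts 1.6.4 and the build TAIR10. TPM was summed to genes, and symbols and coordinates came from the TAIR10.1 RefSeq annotation, which matched 27445 of 27655 genes. The RPM were whole multiples of 1 step per library (2732 of 2732 low values within 0.1 of a whole read), which gave the depths. Small RNA columns name a group, and their numbers only name libraries.

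For each assay limma 3.58.1 with an intensity trend (R 4.3.3) was fitted to log2(value + 1), for features with a mean of at least 1, over all groups without a block, with 5 contrasts. It was tested on simulated data. Alternatives were pseudocounts of 0.5 and 0.1, no filter or a mean of 5, median centring, nuclear genes rescaled, a replicate block (mRNA), only the groups compared, and leaving out each library. The unfiltered fit for the 3 low members and the removal of each library's trend with transcript length and purine (A and G) share were chosen after seeing the data.

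The members and gene lists were chosen with earlier results of these data known. From a list, up to 4 called genes per comparison with the largest change relative to the median gene were named, besides genes at or near 0 that were named after their values were seen. Because no label states that replicates are separate cultures, p-values measure only the spread between libraries, which may be technical. Same-numbered mRNA libraries of wild type did not deviate together in every pair (r = 0.082, −0.1 and 0.294), nor did those of sos2-2 (−0.056 and 0.143). Between the genotypes r was 0.161 and 0.169 on MS, and −0.526, −0.231 and −0.236 in NaCl. The numbers were not taken to pair the libraries.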

Additional observations from a re-analysis of the deposited data

Results flagged for a closer look

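The salt response of ATAF2 differed between the genotypes by 1.84 (log2 relative to the median gene, sos2-2 minus wild type, limma interaction adjusted p = 0.000606), from −0.55 in wild type to 1.3 in sos2-2. ATAF2 was lower in all 3 wild-type NaCl libraries than in any wild-type MS library and higher in all 3 sos2-2 NaCl libraries than in any other. The salt response of ANAC055 differed by 0.75 (limma interaction adjusted p = 0.0426), in the fit without the filter on low values, from −0.03 to 0.77. The ANAC055 difference was called in 3 of 17 alternatives. Its levels were 0.177 to 2.04 TPM, where TPM gives no counts to judge precision by.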

How the results depend on the processing

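The number of called members among the 7 tested depended on scaling and filtering. For salt in wild type it was 2, and 0 with no filter, 1 with a filter at a mean of 5 and 4 with nuclear genes rescaled. The filter at 5 kept only ATAF1, ATAF2, ORE1 and ANAC047 of the 7. For salt in sos2-2 it was 5, and 3 with a filter at 5, which left fewer members in the fit. On MS it was 0, and 1 when only the groups compared were fitted. For sos2-2 against wild type in NaCl it was 6, and 3 after median centring, 3 with nuclear genes rescaled and 3 with the purine and length trend removed. With 1 library left out the counts ran from 0 to 3 for salt in wild type, 4 to 5 for salt in sos2-2, 3 to 6 in NaCl and 1 to 4 for the interaction. For miR164 strands, 1 was called for salt in sos2-2 and 0 with no filter, and 0 were called in NaCl and 1 after median centring. With 1 library left out the counts were 0 to 1 for salt in sos2-2 and 0 to 1 on MS. The cause of these changes was not tested.

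With the replicate block the members called numbered 2 for salt in wild type, 5 for salt in sos2-2, 0 on MS, 6 in NaCl and 1 for the interaction, as without it, and the one member call it ended was the ANAC055 interaction (limma adjusted p = 0.0612). No replicate block was run for miRNAs, whose numbers only name libraries. Of 1390 member and strand values under the alternatives 39 changed sign, in 0 of which either value was called. Over all genes, the count on MS was 462, with 12 under no filter and 6 to 1432 with 1 library left out, and it was 1705 after centring. In NaCl it was 3205 (3138 higher and 67 lower) and 1757 after centring (821 and 936), and 1118 to 5570 with 1 library left out. For salt in wild type 1558 became 439 without replicate 3 in NaCl. TPM carries no depth, so precision at low values, as for ANAC016, is unknown.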
